A study of Bos taurus with 6 samples.

Results

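The complement genes of intramuscular fat (IMF) were described in the mRNA libraries of Qinchuan steers and bulls. They were chosen by gene symbol from a list of 32 components, receptors and regulators of the complement system. The rule uses the symbols alone, but the 32 genes were chosen with earlier results of these data known. The table of 25444 genes holds 27 of them, of which 21 had at least 20 counts over both libraries and 6 had none in either. CFD, CR2, CD55, C4BPA and FCN1 were not analysed here. All animals were Chinese Qinchuan males that were weaned at 3 months, fed alike and slaughtered at 24 months, and the IMF was dissected from the sternomandibularis, a muscle of the neck. The steers (labelled CM) had been castrated surgically at 6 months, and the bulls (IM) were left intact. RNA of each group was pooled into 1 mRNA library, over 6 animals by the design text and over 3 by the sample labels. The counts sum to 12677375 in steers and 9868415 in bulls.

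Complement is a cascade of plasma and tissue proteins that tags particles for uptake and can puncture membranes. In the classical pathway C1q binds a target and switches on the proteases C1r and C1s, which cut C4 and C2, and the lectin pathway reaches the same step through MASP proteases. Both paths and the alternative pathway of factor B, factor D and properdin meet at C3, after which the late components assemble the membrane attack complex. The liver makes most of the plasma proteins, but C1q comes chiefly from macrophages, and fibroblasts and other stromal cells make C1r, C1s, C3 and C7 in tissues. Adipose tissue is a known site of complement synthesis.

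The chains of C1q, properdin, factor B, C3 and the anaphylatoxin receptors C3AR1 and C5AR1 were more than 2-fold lower in steers. The proteases C1R and C1S, the inhibitor SERPING1 and the membrane regulators CD46 and CD59 were at most 1.46-fold lower. C4A and clusterin were higher in steers, and MASP1 was the gene past 2-fold in that direction. Of the 21 genes with enough counts, 11 were more than 2-fold lower in steers and 1 was more than 2-fold higher. Over the 13501 genes of the table with at least 20 counts, 10.2% were more than 2-fold lower and 5.34% more than 2-fold higher. Because the complement genes were chosen with earlier results known, these shares are a background and not an independent test. The median log2 fold change, always given as steers over bulls and called the log2 ratio from here on, was -1.05 over the 21 complement genes and 0.02 over all 13501. Complement genes held 1.41% of all counts in steers and 1.71% in bulls, or 0.780% and 1.07% without clusterin.

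Library scaling used median-of-ratios size factors, 1.04 for steers and 0.959 for bulls. Scaling by total counts instead would lower every log2 ratio by 0.24, which turns the sign of CLU, DCN, PECAM1, APOA1, C5AR2 and COLEC12 among the genes named here. The intervals given are 95% Clopper-Pearson intervals of the ratio of 2 counts. With 1 library per group no spread between replicates was measured, so the intervals cover counting error only and no test of castration was possible. An exact binomial test of the 2 libraries, adjusted over the 17752 genes with a count and joined to the 2-fold limit, called the same 11 genes lower and the same 1 higher, beside 8.13% and 4.37% of all genes. That test compares 2 libraries, not the conditions. With a spread between pools set by assumption in edgeR's exact test, at a biological coefficient of variation (BCV) of 0.4, 0 complement genes were called in either direction, beside 0.807% of all genes lower and 0.4% higher. Transcript lengths were not used here, so counts are compared between libraries and not between genes.

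**Figure D1:**
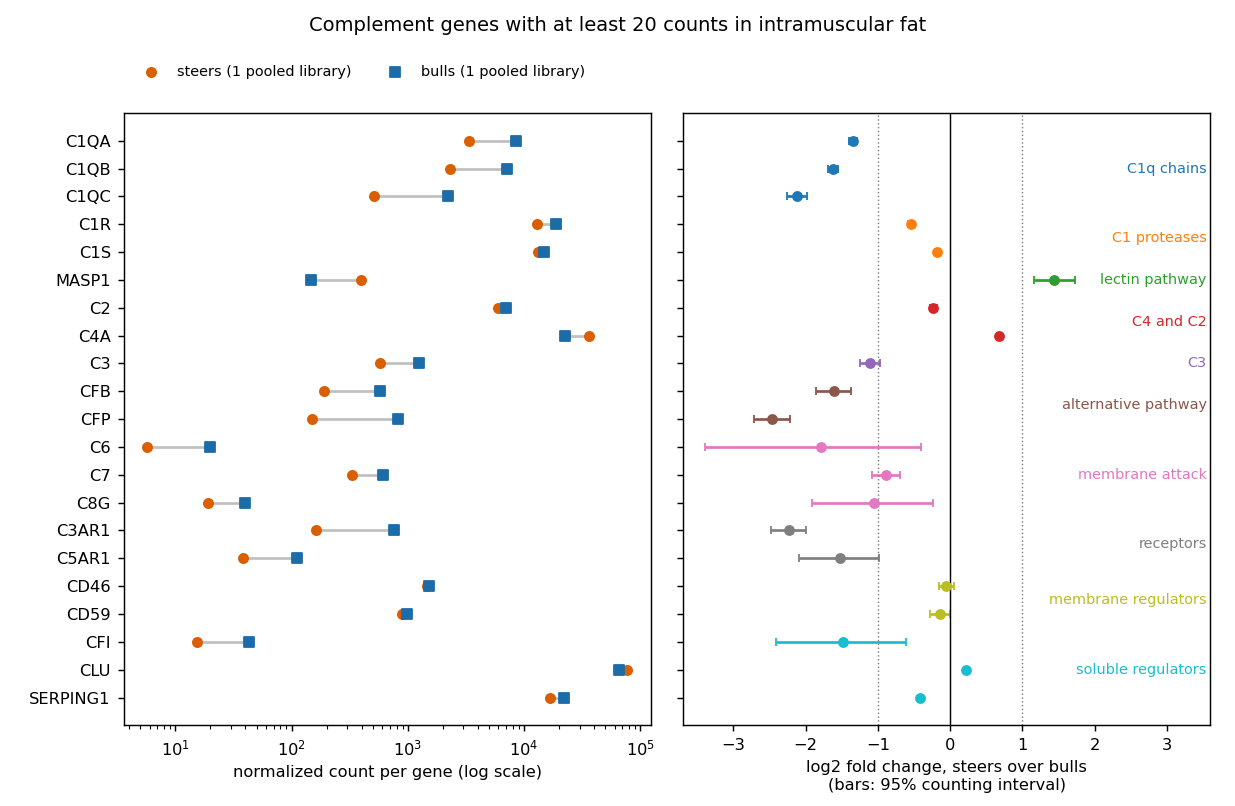
Left, normalized counts (log axis) of the 21 complement genes with at least 20 counts in the library of steers (circles) and that of bulls (squares). Right, log2 ratios, steers over bulls, with 95% counting intervals and dotted lines at 2-fold. The chains of C1q, CFB, CFP and C3AR1 lie left of the 2-fold line with their whole intervals, and MASP1 lies right of it. C3, C5AR1, C6, C8G and CFI lie left of the line with intervals that cross it, and those of C6, C8G and CFI are wide.

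C1q is built from 3 chains, encoded by C1QA, C1QB and C1QC, which lie close together on chromosome 2 in the RefSeq annotation of ARS-UCD2.0. C1QA was counted 3487 times in steers against 8137 times in bulls, which gave a log2 ratio of -1.34 (95% interval -1.40 to -1.29). C1QB had 2414 and 6815 counts, at a log2 ratio of -1.62 (-1.69 to -1.55). C1QC had 534 and 2124 counts, at a log2 ratio of -2.11 (-2.25 to -1.98). All 3 chains were lower in steers by more than counting error, and the interval of each chain lay apart from those of the other chains. Summed over the chains, C1q was at 6435 counts in steers and 17076 in bulls, and the log2 ratio of the sum was -1.53 (-1.57 to -1.49).

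The size of the difference was not the same for all chains. C1QA made up 54.2% of the C1q counts in steers (52.96% to 55.4%) and 47.7% in bulls (46.9% to 48.4%). C1QC made up 8.30% in steers (7.64% to 8.999%) and 12.4% in bulls (11.9% to 12.9%). The ratio of C1QA to C1QC was 6.53 in steers and 3.83 in bulls, a difference of 0.77 on the log2 scale (0.62 to 0.92) that no scaling of the libraries can change. The protein holds its chains in equal numbers, while the proportions of their transcripts differed between the libraries beyond counting error.

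Markers of macrophages other than complement genes moved with C1q. All 18 genes of a macrophage list were in the table, and 1 of them, MARCO, had fewer than 20 counts. The other 17 all had a log2 ratio below 0, and 13 of them were more than 2-fold lower in steers. Their median log2 ratio was -1.70, and the list summed to 0.259% of all counts in steers against 0.841% in bulls. The most abundant gene was CD74, the invariant chain of MHC class II, with 12658 and 41520 counts, at a log2 ratio of -1.84 (-1.86 to -1.81). The largest difference in the list was that of FCGR1A, the high-affinity IgG receptor, at -3.93 (-4.24 to -3.63), and the smallest was that of LYVE1, a receptor of resident macrophages and lymphatic vessels, at -0.18 (-0.28 to -0.07). The part of macrophage number in the lower C1q was not tested, and in pooled tissue RNA fewer cells of a type and less RNA per cell cannot be told apart.

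**Figure D2:**
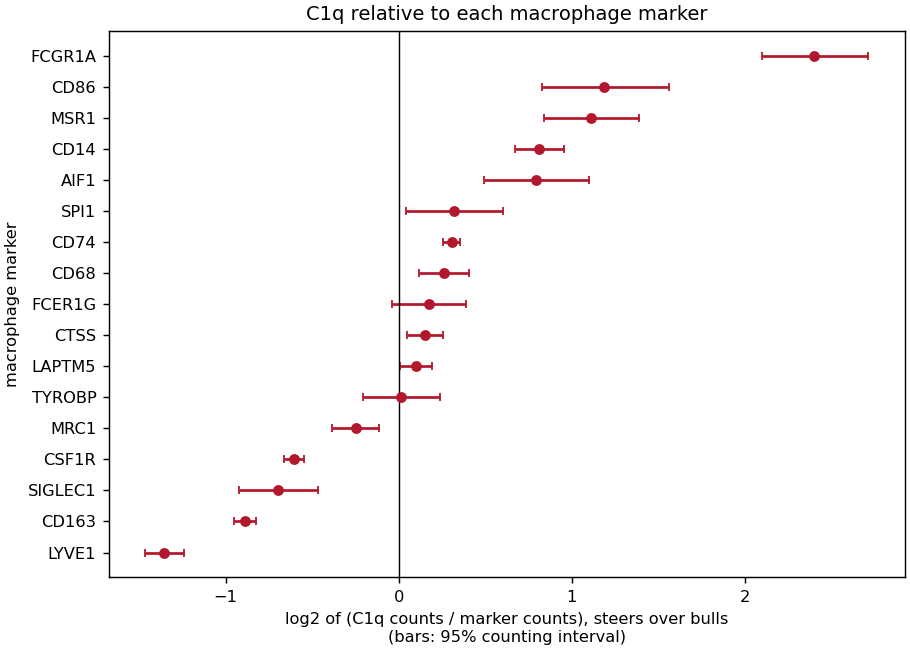
The x axis gives the log2 of the ratio of summed C1q counts to the counts of 1 macrophage marker, steers over bulls, with 95% counting intervals, and each line of the y axis is a marker with at least 20 counts. Points run from -1.35 for LYVE1 to 2.40 for FCGR1A, and those of TYROBP and FCER1G have intervals that hold 0.

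Set against each marker within a library, C1q took no single position. The C1q sum stood at 26.8 counts per count of TYROBP, an adaptor of myeloid receptors, in steers and at 26.6 in bulls. Per count of CD163, the haemoglobin scavenger receptor, C1q was at 1.15 in steers and 2.12 in bulls, and per count of CSF1R, the receptor of macrophage colony-stimulating factor, at 0.912 and 1.39. Per count of CD14, the co-receptor for lipopolysaccharide, the order turned, with 12.1 in steers and 6.86 in bulls. Over the 17 markers the ratio was higher in steers for 10, lower for 5 and within counting error for 2. C1q thus lay between a group of markers that differed more between the pools, FCGR1A, CD86, MSR1, CD14 and AIF1 among them, and a group that differed less, formed by CD163, CSF1R, SIGLEC1, MRC1 and LYVE1.

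C1R, C1S, C3 and C7 are called stromal components here, although which cells made their transcripts was not measured. Of these, C1R and C1S differed much less between the pools than the chains of C1q did. The log2 ratios of C3 and C7 lay between those of C1R and C1QA. C1R was counted 13440 times in steers against 18007 times in bulls, which gave a log2 ratio of -0.54 (-0.58 to -0.51). C1S, whose gene is next to C1R on chromosome 5, had 13716 and 14230 counts, at a log2 ratio of -0.18 (-0.21 to -0.14). The pair did not move in step, since C1R stood at 0.98 counts per count of C1S in steers and at 1.27 in bulls, a log2 difference of -0.37 (-0.42 to -0.32).

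C3, the component at which all pathways meet, was the member of this group past 2-fold. It was counted 602 times in steers against 1191 times in bulls, which gave a log2 ratio of -1.11 (-1.25 to -0.96), so that its interval reached across the 2-fold line. C7, a late component that binds the growing attack complex to a membrane, had 348 and 591 counts, at a log2 ratio of -0.89 (-1.08 to -0.69). All of C1R, C1S, C3 and C7 were lower in steers, and their counts summed to 28106 in steers and 34019 in bulls, which gave a log2 ratio of -0.40 (-0.42 to -0.37). C1R and C1S made up 27156 and 32237 of these counts, so the sum follows them more than C3 and C7.

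Most fibroblast and stromal markers did not move with these genes. Of 16 markers, 13 had a log2 ratio above 0, 3 were more than 2-fold higher in steers and 0 more than 2-fold lower, with a median of 0.68. The list summed to 15.1% of all counts in steers against 9.55% in bulls. COL3A1, with the most counts, had 405713 and 154733 counts, at a log2 ratio of 1.27 (1.26 to 1.28), COL6A1 was highest at 1.44 (1.43 to 1.46), and DPP4, with 21 and 27 counts, was lowest at -0.48 (-1.38 to 0.39). Decorin (DCN), a proteoglycan of fibroblasts, had close to equal levels in both pools at 0.04 (0.02 to 0.05). Per count of DCN, C1R was at 0.177 in steers and 0.264 in bulls, C1S at 0.180 and 0.209, C7 at 0.00457 and 0.00867, and C3 at 0.00791 and 0.0175. Relative to DCN each was lower in steers, with log2 differences from -0.21 for C1S to -1.14 for C3. Relative to PDGFRA, a receptor of fibroblast progenitors that was itself at -0.48 (-0.57 to -0.40), C1S was higher in steers at 0.31 (0.22 to 0.40) and the interval of C1R (-0.15 to 0.03) held 0, while C3 and C7 were lower at -0.62 and -0.40. Over all 16 markers C1R was lower in steers against 14, C1S against 14, C3 against 15 and C7 against 15. The part of stromal cell number in these values was not tested.

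**Figure D3:**
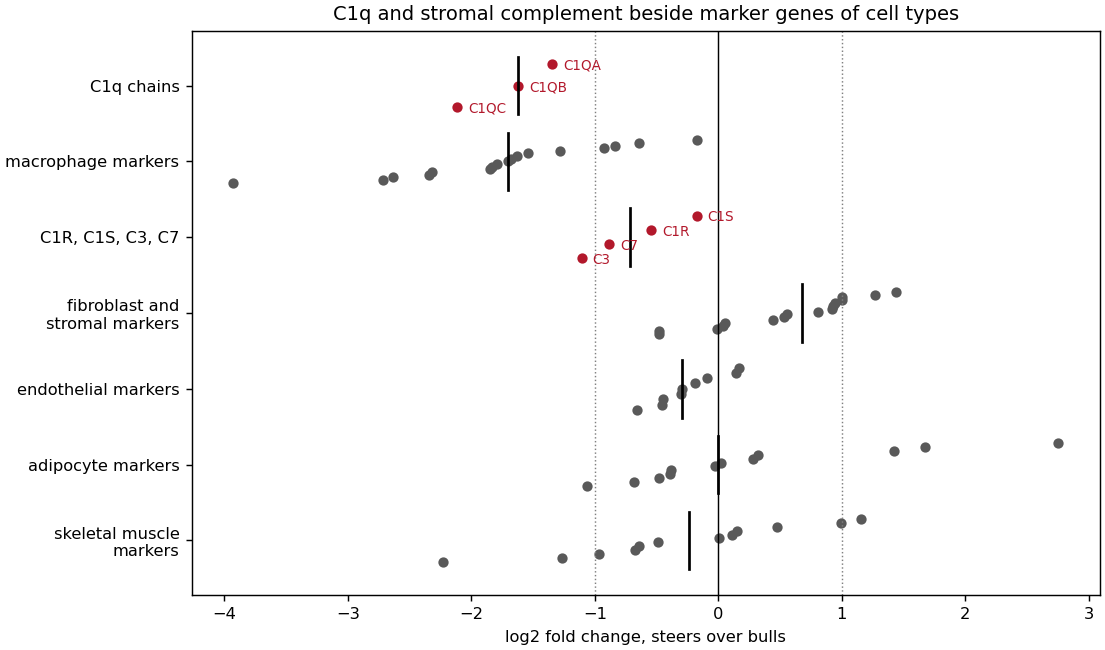
Each point is 1 gene with at least 20 counts, placed by its log2 ratio, steers over bulls, and black bars are medians. The C1q chains, from -2.11 to -1.34, lie within the range of the macrophage markers (-3.93 to -0.18). C1R, C1S, C3 and C7 lie from -1.11 to -0.18, and the fibroblast markers from -0.48 to 1.44.

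The C1q sum and the sum of C1R, C1S, C3 and C7 were compared directly as a ratio of ratios, which needs no scaling. The C1q sum stood at 0.229 counts per count of C1R, C1S, C3 and C7 together in steers and at 0.502 in bulls. The log2 difference was -1.13, with an exact interval of -1.18 to -1.09. That sum is mostly C1R and C1S, and the difference depended on the component. Taken singly, it was -1.35 (-1.41 to -1.30) against C1S, -0.99 (-1.04 to -0.93) against C1R, -0.64 (-0.84 to -0.44) against C7 and -0.42 (-0.57 to -0.27) against C3. C1q was lower in steers relative to each of them beyond counting error, and more than 2-fold lower relative to C1S alone.

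C4 and C2 form the next step, the protease complex that cuts C3. C4A was counted 37401 times in steers against 21448 times in bulls, which gave a log2 ratio of 0.68 (0.66 to 0.70), and was higher in steers although short of 2-fold. C2 had 6206 and 6689 counts, at a log2 ratio of -0.23 (-0.28 to -0.18). The ratio of C4A to C2 was 6.03 in steers and 3.21 in bulls, so that the substrate pair of C1s moved in opposite directions, with a log2 difference of 0.91 (0.85 to 0.97). Cattle carry near-identical copies of C4, and how the counting treated reads that match several copies was not given in the sources used here, so the value of C4A is uncertain to that extent. Against DCN, C4A was higher in steers by 0.64 (0.62 to 0.67) on the log2 scale, and against COL3A1 the log2 difference was -0.59 (-0.61 to -0.56). The direction of C4A relative to stromal genes therefore depended on the gene chosen.

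Factor B (CFB), the protease of the alternative pathway and a relative of C2, lies next to C2 on chromosome 23 with no coding gene between them. It was counted 198 times in steers against 556 times in bulls, which gave a log2 ratio of -1.61 (-1.85 to -1.38). The neighbours differed, since the ratio of CFB to C2 was 0.0319 in steers and 0.0831 in bulls, a log2 difference of -1.38 (-1.63 to -1.14). Properdin (CFP), which stabilizes the alternative pathway protease and is made by myeloid cells, had 157 and 796 counts. Its log2 ratio of -2.46 (-2.72 to -2.22), or a level 5.52-fold higher in bulls, was the largest difference among the 21 complement genes. Per count of CD14, CFP was at 0.294 in steers and 0.320 in bulls, a log2 difference of -0.12 whose interval of -0.41 to 0.17 holds 0. Over the 17 macrophage markers the ratio of CFP was lower in steers for 12, higher for 1 and within counting error for 4.

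In the lectin pathway, MASP1, a protease that associates with lectins such as mannose-binding lectin, was the 1 complement gene more than 2-fold higher in steers. It was counted 414 times in steers against 140 times in bulls, which gave a log2 ratio of 1.44 (1.16 to 1.73), or 2.72-fold higher in steers. MASP2, the protease that cuts C4 and C2 in this pathway, had 0 counts in both libraries. A count of 0 allows up to 3 counts, or 0.237 CPM in steers and 0.304 CPM in bulls.

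**Figure D4:**
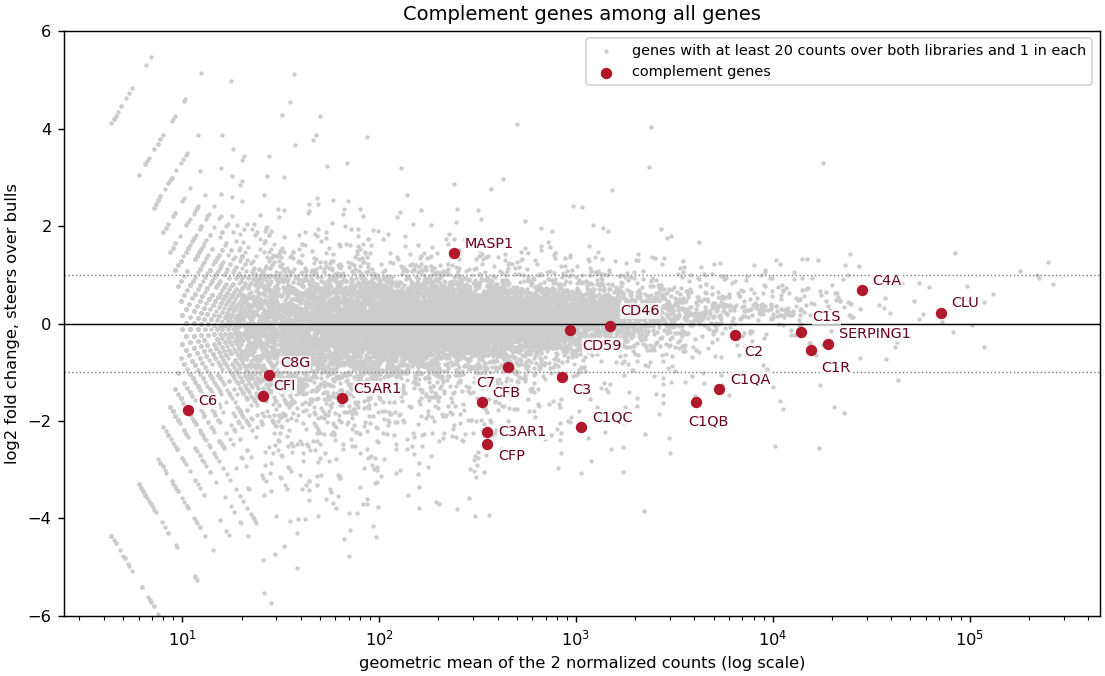
The x axis gives the geometric mean of the 2 normalized counts (log scale) and the y axis the log2 ratio, steers over bulls, for 13434 genes with at least 20 counts over both libraries and 1 in each (grey, 11 of them beyond the axis) and for the complement genes (red). Dotted lines mark 2-fold. C1QA, C1QB and C1QC lie below most genes of like counts, and CLU, C4A, C1R, C1S and SERPING1, at higher counts, lie between -0.54 and 0.68.

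The membrane attack complex was represented in part. C5, C8A, C8B and C9 had 0 counts in both libraries, under the same limit of 3 counts. C6 was counted 6 times in steers against 19 times in bulls, which gave a log2 ratio of -1.79 with an interval from -3.40 to -0.40. C8G, the small chain of C8, had 20 and 38 counts, at -1.05 (-1.91 to -0.23). C6 and C8G passed the 2-fold limit on few counts, and their intervals reach well within it. C7, described above with the stromal components, lies on chromosome 20 with 1 coding gene between it and C6 and 6 between it and C9, so expressed and undetected late components are close neighbours there.

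Since the liver makes most late components, a hepatocyte list was counted in the same libraries. Albumin (ALB) had 0 counts in steers and a single count in bulls, while AHSG, APOA2 and FGA had none in either. The 12 genes summed to 0.00604% of all counts in steers against 0.0123% in bulls, and 6 of them had at least 20 counts, 2 more than 2-fold lower and 2 more than 2-fold higher, with a median of -0.04. The most abundant was haptoglobin (HP), a haemoglobin-binding protein also made in fat, with 124 and 944 counts, at a log2 ratio of -3.05 (-3.33 to -2.78). Transthyretin (TTR), a carrier of thyroid hormone and retinol-binding protein, had 339 and 22 counts, at 3.82 (3.20 to 4.52). APOA1, the main protein of high-density lipoprotein, had 201 and 176 counts and FGG, a fibrinogen chain, 41 and 42. Some plasma protein transcripts were thus present in both pools, while ALB, AHSG, APOA2 and FGA, like C5, C8A, C8B and C9, were at 0 or 1 count.

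Of the receptors of the anaphylatoxins, peptides cut from C3 and C5 that activate myeloid cells, C3AR1 and C5AR1 were lower in steers. The second C5a receptor, C5AR2, is outside the 32 names and was at 0.04 (-0.07 to 0.15). C3AR1 was counted 170 times in steers against 733 times in bulls, which gave a log2 ratio of -2.23 (-2.48 to -1.99). C5AR1 had 40 and 106 counts, at a log2 ratio of -1.53 (-2.09 to -0.99). Per count of CD14, C3AR1 was at 0.318 in steers and 0.294 in bulls, with an interval of the log2 difference from -0.17 to 0.39 that holds 0. C5AR1 was at 0.0749 and 0.0426 per count of CD14, higher in steers by 0.82 (0.23 to 1.37). The direction turned with the marker, since per count of CD163 the log2 difference of C5AR1 was -0.88 (-1.45 to -0.34) and per count of CSF1R it was -0.60 (-1.17 to -0.06). Over the 17 markers the ratio of C5AR1 was higher in steers for 5, lower for 4 and within counting error for 8. That of C3AR1 was lower for 12, higher for 3 and within counting error for 2.

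The abundant soluble regulators differed little between the pools. Clusterin (CLU), a chaperone of the blood that blocks the attack complex, was counted 80325 times in steers against 63159 times in bulls, which gave a log2 ratio of 0.22 (0.21 to 0.24). Scaled by total counts CLU was at -0.01, so its direction depended on the scaling. SERPING1, the inhibitor of C1r and C1s, had 17288 and 21151 counts, at a log2 ratio of -0.41 (-0.44 to -0.38), which lay between those of the proteases it inhibits.

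On cell surfaces, CD46, a cofactor for the cleavage of C3b and C4b, was counted 1517 times in steers against 1444 times in bulls, and its log2 ratio of -0.05 had an interval (-0.16 to 0.05) that holds 0. CD59, which stops C9 from joining the attack complex, had 925 and 936 counts and lay at -0.14 (-0.27 to -0.01). CFI, the protease that inactivates C3b, was scarce with 16 and 41 counts, and its log2 ratio of -1.48 (-2.41 to -0.61) was past 2-fold with an interval that reached within it. Vitronectin (VTN), a plasma inhibitor of the attack complex, had 0 counts in both libraries.

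Other genes of the system outside the 32 names were taken from a list of 26, of which 19 were in the table and 10 had at least 20 counts. Of these 10, 3 were more than 2-fold lower in steers and 1 more than 2-fold higher, with a median log2 ratio of 0.07. The 3 lower genes were VSIG4, the macrophage receptor for C3b, at -2.03 (-2.27 to -1.80), ITGB2, the shared beta chain of the leukocyte complement receptors, at -2.32 (-2.50 to -2.14), and C1RL, a relative of C1R with 5 and 27 counts, at -2.56 (-4.29 to -1.16). PTX3, a soluble pattern recognition protein that binds C1q, was counted 2922 times in steers against 718 times in bulls and was higher at 1.90 (1.78 to 2.02). VSIG4 marks tissue macrophages, ITGB2 is carried by leukocytes in general, and PTX3 is made by stromal as well as myeloid cells. Calreticulin (CALR), a chaperone that can bind C1q, was at 0.92 (0.87 to 0.98), C1QBP at 0.69 (0.48 to 0.90) and CD93 (listed as LOC539690) at 0.83 (0.66 to 1.01). The second C5a receptor, C5AR2, which the table lists as GPR77, was at 0.04 (-0.07 to 0.15), COLEC12 at 0.09 (-0.02 to 0.20) and THBD at -0.49 (-0.67 to -0.30). CFHR5, COLEC10, COLEC11, CPN2, CRP and MBL2 had 0 counts in both libraries.

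Markers of fat, muscle and vessels were counted to describe the labelled tissue. Adipocyte genes were present in both pools, with 0.374% of all counts in steers against 0.442% in bulls over 12 genes, and their median log2 ratio was -0.002, with 1 gene more than 2-fold lower and 3 more than 2-fold higher. CIDEC, a lipid droplet protein and the most abundant, had 9931 and 7501 counts, CIDEA was highest at 2.75 (2.49 to 3.02) and FABP4 lowest at -1.06 (-1.12 to -1.01). Skeletal muscle genes were present too, at 0.291% and 0.525% of the counts over 12 genes. The adipocyte and muscle shares were small beside those of the fibroblast and stromal list, 15.1% in steers and 9.55% in bulls. ACTA1, the actin of skeletal muscle and the most abundant, had 13852 and 19910 counts, and the list had a median of -0.24, with MYH1 highest at 1.15 (0.82 to 1.501) and MYH7, the slow myosin, lowest at -2.23 (-2.35 to -2.11). For 9 endothelial genes the median was -0.30, and 0 of them were past 2-fold in either direction. PECAM1, the most abundant and the highest of these, was at 0.16 (0.10 to 0.23), and TEK was the lowest at -0.66 (-0.87 to -0.45).

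Lymphocyte genes were scarce and also lower in steers. The T lymphocyte list of 12 genes summed to 110 counts in steers and 983 in bulls, and all 10 genes with enough counts were more than 2-fold lower, with a median of -4.04, or -3.82 with CD3G at its bound. CD3E, the most abundant, had 35 and 253 counts, CD3D differed least at -2.27 (-2.96 to -1.64), and CD3G, with 0 and 34 counts, was at least 12.3-fold lower in steers. Among T lymphocyte genes with a count in both libraries the lowest was CD27, with 1 and 57 counts, at -5.96 (-11.28 to -3.42). The B lymphocyte and follicular dendritic cell list summed to 110 and 289 counts over 11 genes, CD79B and MS4A1 were at 0 in both libraries, and 4 genes had enough counts. JCHAIN (listed as IGJ), the most abundant and lowest of these, was at -2.81 (-3.53 to -2.16), and CXCL13, a chemokine for B cells, was highest at 2.85 (1.71 to 4.23), so the median of -2.48 over 4 genes covers opposite directions.

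Several complement genes, among them C2, CFB, C3, C1S and SERPING1, are known to respond to interferon, and a list of interferon response genes was therefore counted. Of 15 genes in the table, 9 were more than 2-fold lower in steers and 0 more than 2-fold higher, with a median of -1.29, also with CXCL10 at its bound. MX1 was highest at 0.36 (0.12 to 0.61), and CXCL10, with 0 and 177 counts, was at least 64.2-fold lower in steers. CXCL9, a related chemokine with 1 and 147 counts, was the lowest of the list with a count in both libraries, at -7.32 (-12.64 to -4.82). Beside these genes CFB and C3 were past 2-fold in the same direction. C2, C1S and SERPING1, at -0.23, -0.18 and -0.41, were not. The complement genes that were higher in steers, C4A at 0.68, CLU at 0.22 and MASP1 at 1.44, are not among the responders named here. The part of interferon in any of these differences was not tested.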

How the data were processed

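The authors removed adaptors and low-quality reads of the Ion Proton libraries and used MapSplice to map what remained on the bovine genome. The submitters' processing notes name BWA, which the study used for small RNA, and GRCh37.p13, a human build. Neither the program that counted reads nor whether it used strand was given in the sources used here. The mRNA values are raw counts per gene as deposited, without normalization, from 1 pooled library per group. The 4 small RNA libraries were not used here.

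Median-of-ratios size factors were computed in Python (numpy 2.4.6, pandas 2.3.3). Intervals are 95% Clopper-Pearson intervals (scipy 1.17.1), and those of ratios of ratios are exact conditional intervals. Reads are not independent molecules, so both cover counting error only. A gene was past 2-fold at an absolute log2 fold change over 1, among genes with at least 20 counts over both libraries. A fold against 0 is a bound against a floor of 3 counts per library. The calculation was run on simulated counts with planted changes. The simulation held counting error only and no spread between pools, so it checks the code and not the calls. Alternatives were total counts, TMM and upper-quartile factors (edgeR 4.0.16, R 4.3.3), filters of 1 and 100 counts, a prior of 5, and other call rules.

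Members and gene lists were chosen with earlier results of these data known, and the pairs of genes set in ratios were chosen after their counts were seen. All complement genes are named, and from each list the most abundant gene and the largest rise and fall among genes with at least 20 counts. A gene at 0 in steers ranks as the largest fall (CD3G, CXCL10), so CD27 and CXCL9 are given beside them. DCN, PDGFRA, APOA1, FGG, LTF, CSF3R, CXCR2, the macrophage markers CD163, CSF1R, CD14, CD86, MSR1, AIF1, SIGLEC1, MRC1, TYROBP and FCER1G, and zero-count genes were named after their values were seen. MRC1, CD93, C5AR2 and JCHAIN were matched through RefSeq gene IDs or older symbols of ARS-UCD2.0, which was used for names and gene order only. Erythroid and neutrophil lists are given with the other observations. A gene that this rule would name is not reported here.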

Additional observations from a re-analysis of the deposited data

How the results depend on the processing

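The number of complement genes more than 2-fold lower in steers, 11, was also 11 with TMM or upper-quartile factors, with a filter of 1 count and by the exact binomial rule, 12 with total counts (C7 joined), 10 with a prior of 5 and 8 with a filter of 100 counts. The count fell to 6 when the whole interval had to lie beyond 2-fold, to 7 with an assumed coefficient of variation of 0.2 and to 0 with 0.4. Over all genes, the last rule called 109 lower and 54 higher in place of 1371 and 721, the interval rule 700 and 298, the coefficient of 0.2 740 and 313, the filter of 1 count 2912 and 2317, and that of 100 counts 698 and 345. The share of all tested genes called lower was 16.4% with the filter of 1 count, 6.67% with that of 100 (18 complement genes tested) and 8.58% with the prior of 5, against 10.2%. MASP1 was the 1 higher gene under each of these except the coefficient of 0.4, with 0. Total counts place the median of all genes at -0.22 in place of 0.02 and move every gene by the same amount. With total counts, 13.7% of all genes were lower and 3.59% higher, so that 20.8% of calls were higher instead of 34.5%, the C1q sum was at -1.77 and the sum of C1R, C1S, C3 and C7 at -0.64. As means of the log2 fold changes, C1q was at -1.69, the stromal group at -0.68, where C3 and C7 weigh as much as C1R, and their difference at -1.01. Without C3 the stromal sum was at -0.38. CLU, not past 2-fold, was the 1 gene of the 21 whose sign changed with a scaling. No paired analysis was possible because each group has 1 mRNA library.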

Other observations

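Neutrophil genes were scarce and did not move one way. The list of 8 genes summed to 292 counts in steers and 102 in bulls, but without S100A8 and S100A9 the other 6 summed to 48 and 65. S100A8, a calcium-binding protein of neutrophils and of stressed epithelia, was counted 95 times in steers and 8 times in bulls, which is 3.45 on the log2 scale (95% counting interval 2.41 to 4.70), and its partner S100A9 had 149 and 29 counts, at 2.24 (1.66 to 2.87). S100A12, the lowest of the 4 genes with at least 20 counts, had 20 and 30 counts and an interval (-1.60 to 0.16) that holds 0, and so did the interval of LTF with 12 counts in each library. CSF3R had 6 and 13 counts and CXCR2 0 and 3. The erythroid list summed to 41 counts in steers against 7 in bulls, with 5 of its 6 genes in the table. HBB had 21 counts in steers and 1 in bulls, HBA had 16 and 6, and ALAS2 had none in either.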
